A study of Rattus norvegicus with 6 samples.

Results

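The genes described are the potassium channels that open on a rise of calcium or sodium inside the cell. They are the 4 genes of small and intermediate conductance channels (Kcnn1, Kcnn2, Kcnn3 and Kcnn4), the pore gene of the large conductance BK channel (Kcnma1) with its neuronal accessory gene (Kcnmb4), and the sodium-activated pair Kcnt1 and Kcnt2. They were taken by gene name from a table of 22536 genes, and each of the 8 names matched 1 row. RNA sequencing was done on 3 control male rats and 3 male rats with painful diabetic neuropathy (PDN), the pain that can follow nerve damage in diabetes. The tissue is labelled as sensory neuron, and the title of the series names the dorsal root ganglion, where the cell bodies of sensory neurons lie beside the spinal cord. No source used here gives the strain, the age, the way diabetes was induced, the state of the controls or any treatment of the sequenced rats.

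Channels of this group let potassium leave the cell and so bring the membrane back toward rest. SK channels carry calmodulin as a built-in calcium sensor and shape the pause after an action potential. BK channels respond to both calcium and depolarisation and shorten the spike itself, and the sodium-activated channels Slack and Slick respond to the sodium that enters during firing. In sensory neurons, where they are known as brakes on repetitive firing, they have been studied for their part in pain.

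Values are FPKM, by definition fragments scaled to transcript length and library size, so that levels of different genes can be set side by side. Which length was used for a gene is not known, since no source used here names the quantifier or annotation. A comparison of the deposited tables gave a constant of 51856000 to 62786000 per library. It was read as the number of fragments behind the values, which was not tested. Markers of neurons and of glia were both present. All 8 pan-neuronal markers were detected in every library, and so were all 7 listed markers of satellite glia and all 7 of Schwann cells. The summed level of the neuronal markers was 4216 to 4642 FPKM in controls and 4249 to 4430 in PDN, and that of the Schwann cell markers was 3318 to 4089 and 3310 to 3986. Fewer cells of a type and less RNA per cell cannot be told apart in such samples. Control 2 and PDN 3 stood apart by skeletal muscle transcripts, at 375 and 128 FPKM over the 5 muscle markers found, against 24.1 in PDN 1 and 1.88 to 2.04 in the other 3 libraries.

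No channel of the group passed the test for a difference between PDN and control. All 8 genes passed the filter, 1 FPKM in 3 or more libraries, and 0 of the 8 passed an adjusted p of 0.05 in limma, over 13282 tested genes. Across all tested genes the share called was 0%, so this count says nothing particular about the channels. At an unadjusted p under 0.05 there were 0 of the 8, against 4.72% of all tested genes. The estimate was higher in PDN for 4 genes (Kcnn1, Kcnn2, Kcnma1 and Kcnmb4) and lower for 4 (Kcnn3, Kcnn4, Kcnt1 and Kcnt2). The median log2 fold change of the 8 was -0.01, and that of all tested genes was -0.02. The 95% intervals of the fold changes, on the scale of FPKM + 1, differed by gene, from 0.744 to 1.07 for Kcnn4 to 0.979 to 1.41 for Kcnn2. A p that misses the threshold does not show that the levels were equal.

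**Figure D1:**
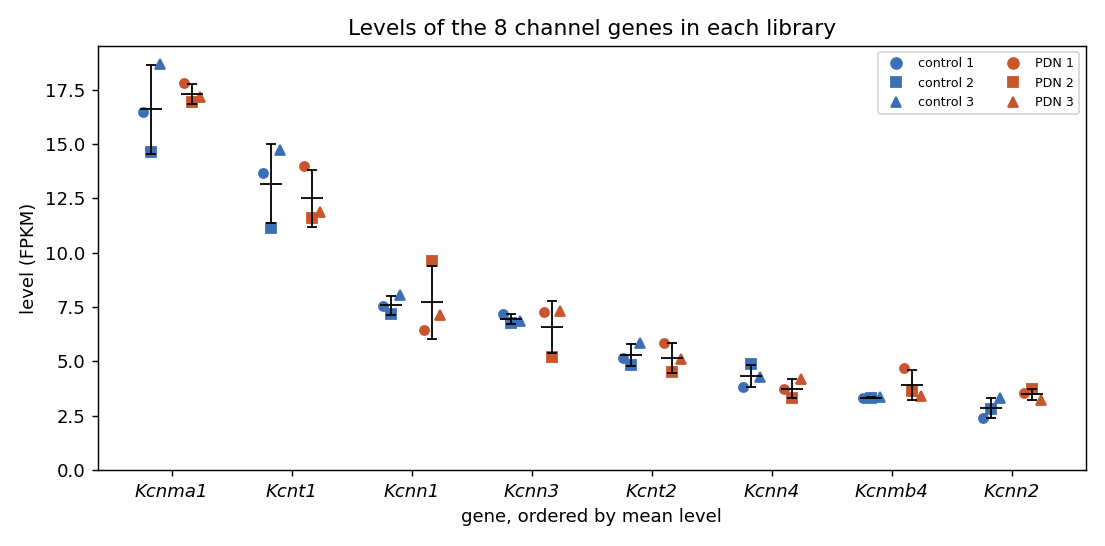
Level in FPKM (vertical axis) of each of the 8 genes, ordered by mean level, in 3 control (blue) and 3 PDN (orange) libraries, with the mean and SD of each group in black. Kcnma1 and Kcnt1 lie above the other 6 genes in every library, and only for Kcnmb4 do the 3 PDN points lie above the 3 control points.

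Kcnma1, the pore-forming subunit of the BK channel, was the most abundant of the group. It lies on chromosome 15, from 344360 to 1047956 as the file gives it (ENSRNOG00000005985). Like all loci below, this is printed without a genome build, because no source used here gives one. Its level was 16.4, 14.6 and 18.7 FPKM in controls 1 to 3 and 17.8, 16.9 and 17.2 FPKM in PDN 1 to 3. The PDN values lay inside the range of the controls. Its mean was 16.6 ± 2.04 among controls and 17.3 ± 0.451 among PDN rats (SD, n = 3 each). Limma estimated a log2 fold change of 0.06 ± 0.09 (SE; 95% interval -0.155 to 0.280; adjusted p = 0.999). Without control 2, the library richest in muscle transcripts, the sign turned (-0.02).

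Kcnmb4 encodes the beta4 subunit, which assembles with the BK pore in neurons and slows its opening. It lies on chromosome 7, from 59461799 to 59514939 (ENSRNOG00000054458). The controls were tightly grouped at 3.31, 3.32 and 3.36 FPKM. PDN 1 was at 4.71, PDN 2 at 3.64 and PDN 3 at 3.40 FPKM, the last only just above the controls. Groups that did not overlap were thus found for 1 of the 8 genes, against 9.93% of all tested genes, and for PDN above control alone against 3.69%. Its log2 fold change from limma was 0.17 ± 0.11 (SE; 95% interval -0.0919 to 0.440; adjusted p = 0.999). Without PDN 1 it was 0.06.

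The other accessory genes of the BK channel were mostly scarce. Of 9 accessory and related genes listed, 3 were tested, with 1 higher and 2 lower estimates and 0 passing the test in either direction, and their median log2 fold change was -0.12. Kcnmb2, whose product inactivates the channel, averaged 2.06 ± 0.359 FPKM over the controls and 1.84 ± 0.621 over the PDN rats (SD, n = 3 each). Kcnmb1, the beta subunit of smooth muscle, averaged 0.245 FPKM over the 6 libraries and stayed below the filter. Kcnmb3 was listed at 0 in 5 libraries and at 0.0200 FPKM in PDN 1. Lrrc55, a leucine-rich repeat protein that shifts BK gating, had the smallest p of the 3 tested genes, at 5.12 ± 0.682 FPKM in PDN against 5.79 ± 0.524. Its relatives Lrrc26 and Lrrc38, which were not tested, averaged 0.0324 and 0.0299 FPKM. Lingo1, a membrane protein reported to bind BK channels, had the highest level of the list, at 24.9 ± 1.59 against 23.3 ± 3.33 FPKM. Kcnmb4 was therefore the most abundant of the 4 Kcnmb genes on the FPKM scale, followed by Kcnmb2.

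The ratio of Kcnmb4 to Kcnma1 within a library asks how much accessory transcript there was per pore transcript. It was 0.201, 0.227 and 0.180 in controls 1 to 3 and 0.265, 0.215 and 0.198 in PDN 1 to 3. The groups overlapped, with PDN 1 highest. The difference of the mean log2 ratio, PDN minus control, was 0.15, with p = 0.5 in a two-sided exact permutation test, in which 3 against 3 libraries cannot give a p below 0.1. The difference was 0.03 without PDN 1, 0.07 without control 3, and 0.24 without control 2 or PDN 3. It was 0.33 with control 2 and PDN 3 both left out.

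Kcnt1 and Kcnt2 encode the sodium-activated channels Slack and Slick, whose subunits can join in one channel. Kcnt1 (chromosome 3, 3310954 to 3365340, ENSRNOG00000017283) was second in level after Kcnma1. It was at 13.6, 11.2 and 14.7 FPKM in controls 1 to 3 and at 14.0, 11.6 and 11.9 FPKM in PDN 1 to 3. The groups overlapped over almost their whole range. Its log2 fold change was -0.07 ± 0.12 (SE; 95% interval -0.339 to 0.208; adjusted p = 0.999 in limma), and 0.01 without control 3.

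Kcnt2 (chromosome 13, 57131012 to 57521836, ENSRNOG00000013312) was at 5.16, 4.86 and 5.86 FPKM in controls 1 to 3. It was at 5.86, 4.50 and 5.09 FPKM in PDN 1 to 3, so the highest value of each group was the same to 3 digits. The log2 fold change was -0.04 ± 0.11 (SE; 95% interval -0.293 to 0.221; adjusted p = 0.999 in limma). It was 0.03 without control 3 and 0.04 without PDN 2. Slick transcript per Slack transcript varied little between rats. The ratio of Kcnt2 to Kcnt1 was 0.378 to 0.435 in controls and 0.387 to 0.428 in PDN. The mean log2 ratio differed by 0.03 between the groups (p = 0.8, two-sided exact permutation test, smallest possible p of 0.1). Without control 1 or PDN 3 its sign turned (-0.02 and -0.0025).

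Genes whose products bind Slack or feed it with sodium were listed beside the pair. Of 6 Slack partners, all tested, 5 were lower and 1 was higher in PDN by their estimates, 0 passed the test, and the median log2 fold change was -0.10. Ano3, which encodes the TMEM16C protein known to enhance Slack activity in nociceptors, had the smallest p, at 56.7 ± 7.22 FPKM over the PDN rats against 65.3 ± 2.73 over the controls (SD, n = 3 each; log2 fold change -0.21; adjusted p = 0.999 in limma). Cyfip2 had the highest level, at 83.9 ± 4.64 against 82.9 ± 8.82 FPKM, and Fmr1, whose protein FMRP binds Slack, was at 9.34 ± 0.487 against 9.52 ± 1.19. Of 7 sodium channel genes, 4 were higher and 3 lower with a median of 0.05, and 0 passed. Scn10a, the tetrodotoxin-resistant channel of nociceptors, had the highest level of these, at 118 ± 11.9 FPKM in PDN and 120 ± 15.8 in controls, and Scn3a had the smallest p, at 2.41 ± 0.571 against 3.10 ± 0.704.

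Kcnn1, Kcnn2 and Kcnn3 encode the small conductance channels SK1, SK2 and SK3, and Kcnn4 the intermediate conductance channel. Kcnn1 (chromosome 16, 20336638 to 20348804, ENSRNOG00000029264) was at 7.55, 7.17 and 8.04 FPKM in controls 1 to 3. It was at 6.43, 9.61 and 7.12 FPKM in PDN 1 to 3. The PDN libraries held both the lowest and the highest value. The log2 fold change was 0.01 ± 0.14 (SE; 95% interval -0.310 to 0.323; adjusted p = 1.000 in limma). It was -0.14 without PDN 2 and -0.03 without control 2.

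Kcnn3 (chromosome 2, 188844073 to 188988774, ENSRNOG00000020706) ran the other way in PDN 2. It was at 7.20, 6.78 and 6.85 FPKM in controls 1 to 3 and at 7.26, 5.19 and 7.30 FPKM in PDN 1 to 3. Its log2 fold change of -0.08 ± 0.12 (SE; 95% interval -0.372 to 0.212; adjusted p = 0.999 in limma) became 0.06 without PDN 2. The ratio of Kcnn1 to Kcnn3 was 1.05 to 1.17 in controls, 0.885 in PDN 1, 0.975 in PDN 3 and 1.85 in PDN 2. The 3 control values were close together, whereas 1 PDN library lay well above and the other 2 below them.

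Kcnn2 (chromosome 18, 39335377 to 39479257, ENSRNOG00000016675) had the lowest level of the 8 genes and the smallest p. It was at 2.42, 2.80 and 3.33 FPKM in controls 1 to 3 and at 3.54, 3.73 and 3.23 FPKM in PDN 1 to 3. PDN 3 lay below control 3, so the groups overlapped by that pair alone. Its mean was 2.85 ± 0.460 among controls and 3.50 ± 0.256 among PDN rats (SD, n = 3 each). Limma gave it a log2 fold change of 0.23 ± 0.11 (SE; 95% interval -0.0308 to 0.494; unadjusted p = 0.0756; adjusted p = 0.999). The estimate was positive whichever library was left out, from 0.15 to 0.32.

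Kcnn4 (chromosome 1, 81230612 to 81245996, ENSRNOG00000019440) encodes a channel best known from red blood cells, T cells and macrophages, and it has also been described in sensory neurons. It was at 3.84, 4.87 and 4.30 FPKM in controls 1 to 3 and at 3.72, 3.33 and 4.21 FPKM in PDN 1 to 3. PDN 3 lay inside the control range and the other 2 PDN libraries below it. Limma put the log2 fold change at -0.17 ± 0.11 (SE; 95% interval -0.426 to 0.0916; adjusted p = 0.999). Leaving out 1 library gave values between -0.24 and -0.10. All 8 macrophage markers were found, 6 were tested, and 6 of the 6 had a lower estimate in PDN, where 43.4% of all tested genes had a higher one. The summed level of the 8 markers was 33.5 to 46.8 FPKM in controls and 23.8 to 33.4 in PDN. The lowest control sum was that of control 2, where Kcnn4 was highest, and the lowest PDN sum that of PDN 2, where Kcnn4 was lowest. The summed level of 6 red blood cell genes was 176 to 281 FPKM in controls and 86.8 to 206 in PDN, with 4 of 4 tested genes lower. The summed level of 6 T cell genes was 6.05 to 9.72 FPKM in controls and 4.73 to 8.35 in PDN. Nearly all of it was Cd4, the only one tested, and the other 5 genes did not exceed 0.269 FPKM in any library. Cd3d and Cd3g, which encode parts of the T cell receptor complex, were listed at 0 in control 2. The part of these cells in the Kcnn4 level was not tested.

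**Figure D2:**
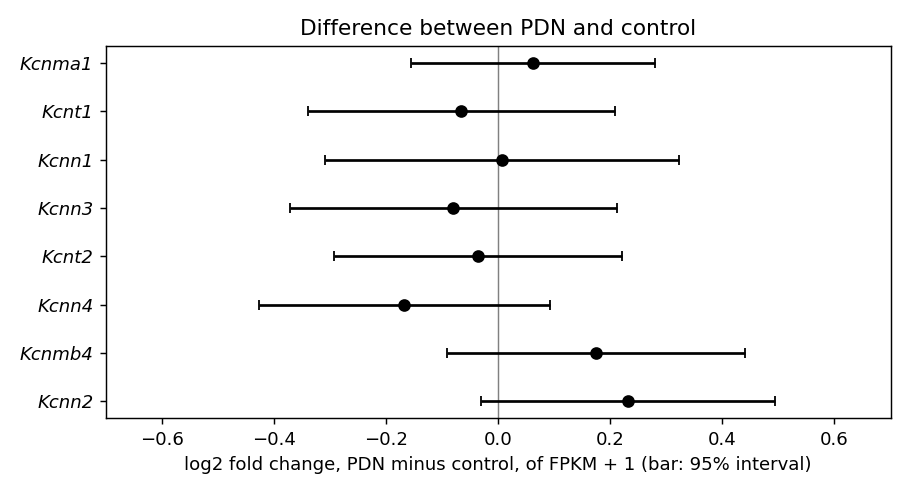
Log2 fold change of FPKM + 1, PDN minus control (horizontal axis), of each of the 8 genes with its 95% interval from limma. Every interval includes 0, and the estimates run from -0.17 (Kcnn4) to 0.23 (Kcnn2).

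The summed level of the 4 Kcnn genes was nearly constant, although their make-up varied. It was 21.0 to 22.5 FPKM in controls and 20.9 to 21.9 in PDN. Kcnn1 took 35.3% ± 4.67 of it, Kcnn3 31.3% ± 4.07, Kcnn4 18.7% ± 2.38 and Kcnn2 14.7% ± 2.19 (SD over 6 libraries). The share of Kcnn2 was 11.5%, 12.9% and 14.8% in controls 1 to 3 and 16.9%, 17.1% and 14.8% in PDN 1 to 3. PDN 3 and control 3 were alike, and the other 2 PDN libraries lay above all controls. In PDN 2 the share of Kcnn1 was 44.0% and that of Kcnn3 23.7%, against 30.7% to 35.9% and 30.4% to 34.7% in the other 5 libraries. No test was planned for these shares and none was made.

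**Figure D3:**
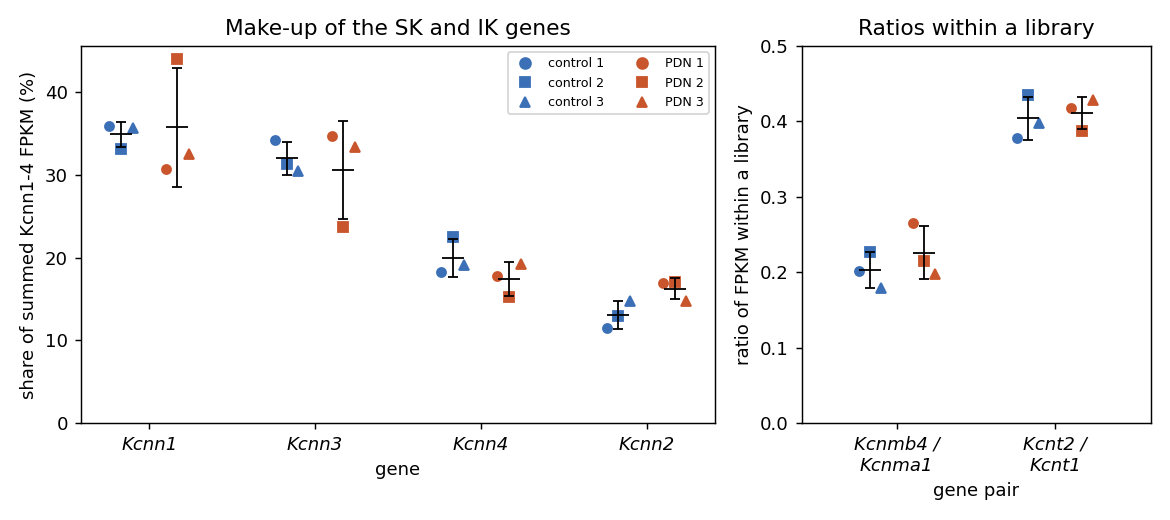
Left, share of the summed FPKM of Kcnn1 to Kcnn4 taken by each gene (vertical axis, percent). Right, ratio of FPKM of Kcnmb4 to Kcnma1 and of Kcnt2 to Kcnt1 within a library. Points are libraries (control blue, PDN orange), and black marks are group means with SD. PDN 2 stands apart for Kcnn1 (44.0%) and Kcnn3 (23.7%), while both ratios overlap between the groups.

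SK channels sense calcium through bound calmodulin, and casein kinase 2 and protein phosphatase 2A on the same complex tune that sensitivity. All 9 genes of this complex were tested, with 4 higher and 5 lower estimates, a median log2 fold change of -0.02 and 0 passing. Ppp2ca, a catalytic subunit of the phosphatase, had the smallest p, at 142 ± 8.91 FPKM over the PDN rats against 152 ± 13.0 over the controls (SD, n = 3 each).

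The calcium that opens BK and SK channels enters through voltage-gated channels or leaves internal stores. Of 8 calcium channel pore genes listed, 7 were found by name and 6 were tested, with 5 higher and 1 lower estimates and a median of 0.08 on the log2 scale. Cacna1b, the N-type channel, had the highest level, at 26.2 ± 2.77 FPKM in PDN against 26.5 ± 3.40, and the L-type gene Cacna1d had the smallest p, at 2.25 ± 0.219 against 1.94 ± 0.259. Of 10 store genes, 9 were tested, with 2 higher and 7 lower and a median of -0.02. Among them Itpr3, an inositol trisphosphate receptor, was at 27.0 ± 3.13 against 28.9 ± 1.55 FPKM, and the pump gene Atp2a2 at 113 ± 1.72 against 115 ± 9.09. In both lists 0 genes passed the test. Of 8 kinase genes, 7 were found and tested, with 4 higher and 3 lower, a median of 0.03 and 0 passing. Prkcb, a protein kinase C gene, had the smallest p of these, at 30.5 ± 1.31 FPKM in PDN against 35.8 ± 3.19 in controls (log2 fold change -0.22; unadjusted p = 0.0252; adjusted p = 0.999 in limma).

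The order of the 8 genes by mean level over the 6 libraries was Kcnma1 (16.9 FPKM), Kcnt1 (12.8), Kcnn1 (7.65), Kcnn3 (6.76), Kcnt2 (5.22), Kcnn4 (4.05), Kcnmb4 (3.63) and Kcnn2 (3.17). Of the 7 neighbouring pairs, 3 kept their order in all 6 libraries. These were Kcnma1 above Kcnt1 (1.21 to 1.46 times), Kcnt1 above Kcnn1 (1.21 to 2.18 times) and Kcnn3 above Kcnt2 (1.15 to 1.43 times). Each had p = 0.0312 in a two-sided exact sign-flip permutation test over the 6 libraries, the smallest that 6 libraries allow, and 0.0729 after Benjamini-Hochberg adjustment over the 7 pairs. Kcnn1 and Kcnn3 did not separate (4 of 6 libraries in order, adjusted p = 0.312, exact sign-flip test), nor did Kcnn4 and Kcnmb4 (4 of 6, adjusted p = 0.312, the same exact test). Kcnt2 over Kcnn4 and Kcnmb4 over Kcnn2 each held in 5 of 6 libraries, with adjusted p-values of 0.109 and 0.131 in the same exact test. No neighbouring pair therefore passed after adjustment. The 3 pairs that held in all libraries were at the smallest possible p, so a larger difference could not have made them pass. The pairs were also formed from the mean levels of these same libraries.

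Against all tested genes, the levels of the 8 lay between the 20.0 percentile (Kcnn2) and the 67.3 percentile (Kcnma1). Among the 92 genes whose names begin with Kcn, accessory genes included, Kcnma1 ranked 25, Kcnt1 28 and Kcnn2 53. The highest was Kcnab2, an accessory subunit of voltage-gated channels, at 181 FPKM, followed by the pore genes Kcna1 (123) and Kcna2 (104). The other 84 genes include Kcnmb1, Kcnmb2, Kcnmb3 and Kcnu1. Of their 59 tested genes, 38 had a higher and 21 a lower estimate in PDN and the median log2 fold change was 0.06, where 43.4% of all tested genes had a higher estimate. At an unadjusted p under 0.05 there were 6 of the 59, 4 higher and 2 lower, against 4.72% of all tested genes, and 0 passed after adjustment. Kcng2, a silent subunit of voltage-gated channels, had the smallest p, with 5.38 ± 0.267 FPKM over the controls and 6.57 ± 0.199 over the PDN rats (SD, n = 3 each; adjusted p = 0.999 in limma).

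**Figure D4:**
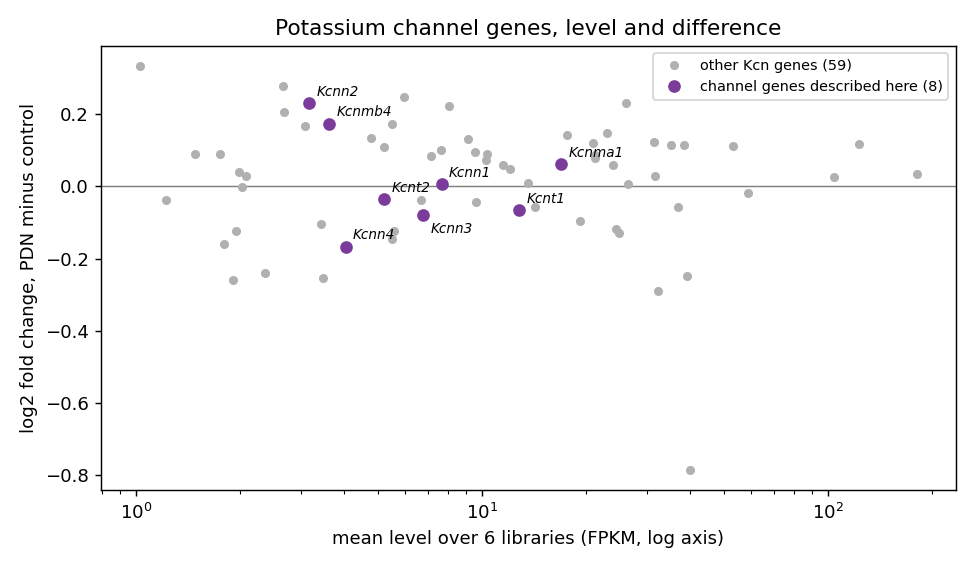
Mean level over 6 libraries (horizontal log axis, FPKM) and log2 fold change of FPKM + 1, PDN minus control (vertical axis), of the 67 tested genes whose names begin with Kcn. The 8 genes described are purple and named, the other 59 are grey. The purple points lie between 3.17 and 16.9 FPKM, and within -0.17 and 0.23 on the vertical axis.

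The channels varied between rats by similar amounts. The highest library exceeded the lowest by 1.28 times for Kcnma1 and by 1.54 times for Kcnn2, with the other 6 genes between. Likeness was measured as the highest Pearson r of log2(FPKM + 1) over the 6 libraries among 54 candidates, the tested partner genes and the other 7 channels. The highest of many values from 6 libraries is large by its choice, so these are descriptions. Kcnt1 was most like Prkce, a protein kinase C gene (r = 0.97, Spearman's rho = 0.943), and r was 0.986 without the 2 libraries farthest from the median of Kcnt1. Kcnt2 was most like Cacna1e (r = 0.92), Kcnma1 and Kcnn2 like Scn9a (0.90 and 0.69), Kcnn3 like Stim1 (0.90), Kcnn1 like Csnk2a1 (0.84) and Kcnn4 like Itpr3 (0.81). Without the 2 libraries farthest from the median of the channel, r fell to 0.58 for Kcnma1, 0.51 for Kcnt2, 0.39 for Kcnn4 and 0.33 for Kcnn2. Those of Kcnn1 and Kcnn3 fell to -0.0318 and -0.0692, and thus rested on those libraries.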

How the data were processed

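RNA was extracted with Trizol and strand-specific libraries were made from 1 µg of total RNA, per the labels' protocols. The authors deposited FPKM per gene with names and loci. No source used here names the aligner, quantifier, annotation or build. The authors' second deposited table carries read counts in its name but was treated as a score: among values above 1000, 54.7% to 55.1% equalled FPKM times genomic span times 1 constant per library (relative tolerance 0.001) and 0% exceeded it. Those constants were read as the fragments per library, an assumption that was not tested. Fragments per gene could not be recovered, so no counting intervals are given. Genes reaching 1 FPKM in 3 or more libraries were fitted as log2(FPKM + 1) in limma 3.58.1 (R 4.3.3) with an intensity trend, group as the only term, and Benjamini-Hochberg adjustment with a threshold of 0.05. This scale understates changes of low genes. Ratios and level orders used exact tests in Python 3.11.15. The fit was tested on simulated data. A library was taken as 1 rat, since the design text counts 3 rats per group. The members and lists were chosen with earlier results of these data known. All 8 members are given in full. From each partner list the tested gene with the smallest p and that with the highest level are given, as no gene passed the threshold, except that 1 such gene is not reported here; Kcnmb1, Kcnmb2, Kcnmb3, Lrrc26, Lrrc38, Fmr1, Kcna1 and Kcna2 were added after their values were seen. Marker lists of large neurons, nociceptors, endothelium, smooth muscle and fibroblasts were also fixed, and their sums are in the closing section. Alternatives covered the pseudocount, filter, scaling, replicate block, empirical Bayes options, the second table and each library left out.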

Additional observations from a re-analysis of the deposited data

How the results depend on the processing

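No channel passed the threshold under any of 16 alternatives, with a lowest adjusted p of 0.780 in limma (Kcnn2 with the replicate block). The unadjusted p of Kcnn2 in limma, 0.0756 in the main fit, was 0.0462 in the whole-number table and 0.0261 without control 3. It stayed above 0.05 in every other alternative, with 0.108 under the replicate block and a highest value of 0.223 without control 1. The count of all genes called, 0, became 1 with no filter, 1 with eBayes without trend, 1 with robust eBayes, 2 in the whole-number table and 0 to 6 when 1 library was left out. It was 9 without control 2 and PDN 3 together, an alternative chosen after seeing the data. The cause was not tested. In that alternative Kcnma1 was at -0.0147, its sign turned. When 1 library was left out, estimates ran from -0.143 to 0.114 for Kcnn1, -0.152 to 0.0602 for Kcnn3, -0.0198 to 0.147 for Kcnma1, -0.172 to 0.0129 for Kcnt1 and -0.117 to 0.0419 for Kcnt2, so these 5 had no stable sign. Those of Kcnn2, Kcnn4 and Kcnmb4 kept theirs under all 16. The difference in log2 Kcnt2 to Kcnt1 ratio ran from -0.0195 to 0.0821 with 1 library left out. Of the 7 neighbouring pairs, 6 kept their order within controls and 4 within PDN, against 3 over all libraries. Fewer libraries can only keep as many pairs or more, so these counts do not show a firmer order within either group. Deviations of same-numbered libraries correlated at 0.171, -0.120 and -0.0865, not all above 0.1. The highest value, 0.269, was that of control 2 with PDN 3. With 3 libraries per group such values cannot exclude a pairing by replicate number. With the replicate block, 0 genes and 0 channels were called. At an unadjusted p under 0.05 in limma there were 849 genes with the block, against 627 in the main fit. Scaling moved the median of all genes by at most 0.0187. Signal is given in FPKM only, so precision of low genes is unknown beyond the spread of 3 rats.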

Other observations

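The whole numbers of the second table, divided by FPKM and by the constant of the library, give a length in kilobases for each gene, and that length can be set beside the gene's span in the file. For Kcnn3 (145 kb) and Kcnmb4 (53.1 kb) it equalled the span in every library to a relative difference below 0.001. For Kcnma1 it was 80.1 to 83.0 kb against a span of 704 kb, for Kcnn2 57.7 to 58.0 against 144 kb, for Kcnt1 18.1 to 18.4 against 54.4 kb, and for Kcnt2 257 to 293 against 391 kb. For Kcnma1 the length was 81.1, 83.0 and 80.1 kb in controls 1 to 3 and 80.1, 80.3 and 80.3 kb in PDN 1 to 3, and the groups overlapped. For Kcnt2 it was 283, 272 and 273 kb in controls 1 to 3 and 257, 293 and 285 kb in PDN 1 to 3, so that PDN held both the lowest and the highest value. What transcripts lie behind these lengths was not tested.

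Summed levels of the other marker lists were 1977 to 2116 FPKM in controls and 1876 to 2073 in PDN for nociceptors, and 2701 to 3441 and 2740 to 3322 for large neurons. They were 1624 to 1893 and 1673 to 1814 for satellite glia, 40.1 to 50.6 and 41.0 to 48.2 for endothelium, 61.5 to 74.5 and 41.7 to 64.5 for smooth muscle, and 370 to 411 and 318 to 360 for fibroblasts. Of these, only the fibroblast sums did not overlap between the groups. The macrophage sums given above did not overlap either, by a narrow margin (33.5 FPKM and above in controls, 33.4 and below in PDN). In the endothelial list, Cldn5 alone had a higher estimate in PDN, at 26.8 ± 1.32 against 21.6 ± 3.40 FPKM (SD, n = 3 each). The other 4 tested genes had lower estimates, so the sum hides opposite directions. In that list 0 genes passed the test.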
